A study of Mus musculus with 24 samples.

Results

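The data describe 10 genes of the neuromuscular junction in *M. gastrocnemius*, the large calf muscle, of mice kept in normoxia (Norm) or in acute normobaric hypoxia (Hypox). They were chosen by name: 5 subunits of the muscle acetylcholine receptor (*Chrna1*, *Chrnb1*, *Chrnd*, *Chrne* and *Chrng*), 4 genes of the pathway that gathers the receptor under the nerve (*Musk*, *Lrp4*, *Dok7* and *Rapsn*), and *Ache*, which encodes acetylcholinesterase. All 10 were on the array, with 14 probes in all, and 6 of the 10 passed the filter on dim probes, of 9139 genes that did. All animals were male C57BL/6JOlaHsd mice, a substrain known to lack the gene for alpha-synuclein. They arrived at 10 weeks of age, received a low-fat diet (10% of energy from fat) for 3 weeks and a high-fat diet (40%) for 6 weeks, and were fasted for the exposure. The 12 Hypox mice then breathed 12% oxygen for 6 h, while the 12 Norm mice stayed at 20.9% oxygen. Fasting, diet and sex were therefore shared by both groups, and RNA came from muscle tissue as a whole, not from the junctional region. In such bulk RNA, fewer junctions and less RNA per junction cannot be told apart.

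At the junction the motor nerve releases acetylcholine, which opens the receptor on the muscle fiber. The receptor is built from alpha, beta and delta subunits together with either the fetal gamma or the adult epsilon subunit, and the gamma subunit is normally replaced by epsilon soon after birth. Nerve-derived agrin binds LRP4, which activates the receptor tyrosine kinase MUSK with the help of the adaptor DOK7, and rapsyn, the product of *Rapsn*, then anchors the receptors in clusters. Acetylcholinesterase ends the signal by splitting acetylcholine. In innervated fibers the receptor genes are transcribed mainly by the few nuclei below the nerve ending, whereas denervated muscle is known to transcribe *Chrna1*, *Chrng* and *Musk* along the whole fiber, through E-boxes in their promoters that bind MYOG and related factors. The N-box, bound by the ETS factor GABP, is known for its part in junction-specific transcription of genes such as *Chrne*.

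The promoters of the 2 genes that passed the test below, and of the adult and fetal subunits, are shown with these motifs. Each sequence is the 250 bases before the start of the gene in RefSeq's GRCm38.p6, read 5′ to 3′ on the strand of the gene, with E-box letters (CANNTG, which reads the same on both strands) and N-box letters (CCGGAA on either strand) in capitals.
*Chrna1*, chr2:73580339-73580588, minus strand: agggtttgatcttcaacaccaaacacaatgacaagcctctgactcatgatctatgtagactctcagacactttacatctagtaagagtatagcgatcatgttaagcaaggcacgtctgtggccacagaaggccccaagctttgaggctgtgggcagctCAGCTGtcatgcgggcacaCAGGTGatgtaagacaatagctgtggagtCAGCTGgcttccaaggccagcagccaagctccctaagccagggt
*Musk*, chr4:58285712-58285961, plus strand: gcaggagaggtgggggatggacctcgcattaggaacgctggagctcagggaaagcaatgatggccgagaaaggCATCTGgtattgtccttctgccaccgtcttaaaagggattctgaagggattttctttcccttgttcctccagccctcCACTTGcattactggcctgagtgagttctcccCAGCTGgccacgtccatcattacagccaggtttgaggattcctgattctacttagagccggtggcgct
*Chrne*, chr11:70619195-70619444, minus strand: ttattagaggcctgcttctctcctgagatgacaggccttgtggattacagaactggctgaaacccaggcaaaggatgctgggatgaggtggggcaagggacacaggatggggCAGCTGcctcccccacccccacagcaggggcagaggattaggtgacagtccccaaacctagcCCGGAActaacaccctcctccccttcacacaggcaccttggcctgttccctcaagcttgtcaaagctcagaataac
*Chrng*, chr1:87205561-87205810, plus strand: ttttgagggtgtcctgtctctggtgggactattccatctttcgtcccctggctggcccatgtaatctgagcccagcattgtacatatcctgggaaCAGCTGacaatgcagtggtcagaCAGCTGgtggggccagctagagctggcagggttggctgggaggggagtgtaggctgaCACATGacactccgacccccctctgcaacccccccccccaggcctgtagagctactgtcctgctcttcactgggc

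The *Chrna1* window held 3 matches to CANNTG, which began at -92, -73 and -44 from the start. The *Musk* window held 3 (at -177, -100 and -68), as did the windows of *Chrng* (at -155, -132 and -75) and *Chrnb1* (at -119, -96 and -29). The *Chrne* window held 1 (at -138) and, at -76, the only CCGGAA among the members. Of the 7 members with a promoter in the RefSeq table, 4 held 3 matches to CANNTG, and *Chrne*, *Ache* and 1 of the 2 start sites of *Dok7* held 1. At least 1 match stood in 66.2% of all 32851 promoter windows of this length, 3 or more in 12.2%, and CCGGAA on either strand in 12.0%. A match describes the letters of the window and does not show a binding site. No promoter was given for *Chrnd*, *Rapsn* and *Lrp4*.

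On each array, Cy5-labelled RNA of a single mouse was set against a Cy3-labelled pool made from all samples, and the value of a probe is the log2 ratio of mouse over pool after loess within the array. The arrays lay on 6 slides with 2 Norm and 2 Hypox arrays each. The mean Cy5 signal ranged from 58.3 on slide 1 to 1014 on slide 6. The share of spots well above background was 9.42% on the first of these arrays and 37.8% on the second. How far the offset of the background correction drew ratios of dim spots toward 0 was not examined, so small values on dim slides or dim probes are to be read with this limit. All 20 skeletal muscle markers lay well above background on 24 of 24 arrays. The surfactant gene *Sftpc*, a marker of lung, lay well above background on 4 Hypox arrays (replicates 3, 7, 8 and 9) and on 0 Norm arrays. Among all genes 655 of 9139 were higher in Hypox at an unadjusted P-value below 0.05 (7.17%) and 463 were lower (5.07%), and 31 passed after Benjamini-Hochberg adjustment over all genes (0.339%). The median difference over all genes was 0.029 on the log2 scale. Unless another test is named, P-values are those of limma's moderated test and are unadjusted, as in the study's methods, with the adjusted P-value given for the results the text turns on.

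The alpha subunit *Chrna1* and the kinase *Musk* were higher in Hypox at the unadjusted threshold, by 1.23-fold each, and neither passed after adjustment. With each array centred on its median both calls were lost (*Chrna1* 0.52, P = 0.136; *Musk* 0.44, P = 0.108), while the median over all genes moved to 0.25. The other 4 members that passed the filter, *Chrnd*, *Dok7*, *Rapsn* and *Ache*, differed by between -0.074 and 0.13 on the log2 scale and did not pass. So 2 of 6 members were higher against 7.17% of all genes, 0 of 6 were lower against 5.07%, and 0 of 6 passed after adjustment against 0.339%. The median difference of the 6 members was 0.064, beside 0.029 over all genes. These counts describe 6 genes chosen by name and carry no test of the group as a whole. The choice was made with earlier results of these data known, and the study had already reported *Chrna1* and *Musk* as higher.

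**Figure D1:**
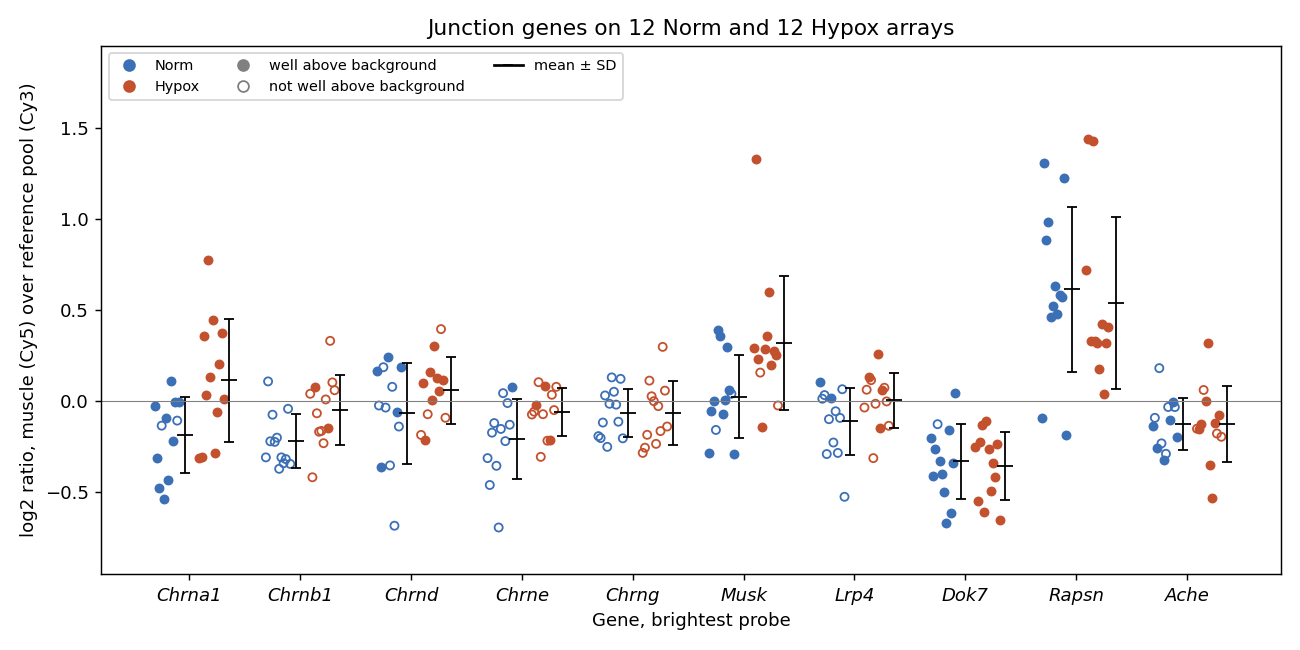
Log2 ratio of muscle over reference pool (y axis) for the brightest probe of each gene (x axis) on 12 Norm (blue) and 12 Hypox (red-orange) arrays; filled points lay well above background, open points did not, and black bars give the group mean ± SD. *Chrna1* and *Musk* are shifted upward in Hypox with overlapping groups, 1 Hypox array stands at 1.33 for *Musk*, and every point of *Chrng* is open.

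The subunit *Chrna1* takes part in binding acetylcholine. Its brighter probe lay at chr2:73404112-73404171 (mm9), from base 1454 of the transcript, and stood well above background on 10 Norm arrays of 12 and on all 12 Hypox arrays. The log2 ratio ranged from -0.53 to 0.11 in Norm (median -0.12) and from -0.31 to 0.77 in Hypox (median 0.085). The groups overlapped, but 6 of 12 Hypox arrays lay above the highest Norm array and 3 of 12 Norm arrays lay below the lowest Hypox array. The means were -0.19 ± 0.21 (SD, n = 12) and 0.11 ± 0.34 (n = 12), a difference of 0.30 ± 0.11 (SE; limma, P = 0.0113, adjusted P = 0.252). The Hypox mean was the higher one on 6 of 6 slides, by between 0.041 on slide 3 and 0.59 on slide 2. Of all genes, 2.51% had a larger upward difference.

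A second *Chrna1* probe, 4177 bases into the same transcript, was under 2 times background and well above it on 4 arrays of each group. Its ratio was -0.020 ± 0.089 (SD) in Norm and -0.043 ± 0.15 in Hypox, a difference of -0.023 (95% confidence interval -0.13 to 0.085, limma over all probes, P = 0.666). The probes of *Chrna1* therefore disagreed in direction, and the interval of the brighter one, 0.074 to 0.53, met that of the dimmer one only at its lower end.

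The beta subunit *Chrnb1* is shared by the fetal and the adult receptor. Its only probe, at chr11:69598674-69599242, spanned 569 bases of genome with 60 bases of sequence and so crossed an intron, and it lay well above background on 0 Norm and 2 Hypox arrays. The log2 ratio ranged from -0.37 to 0.11 in Norm (median -0.27) and from -0.42 to 0.33 in Hypox (median -0.029). In Hypox 11 of 12 arrays lay above the Norm median, and the Hypox mean was the higher one on 6 of 6 slides. Since no Norm array measured the probe well above background, no fold is given for *Chrnb1*. With the Norm values raised to at least the lowest signal well above background on their array, the Hypox mean was 1.06-fold higher. That mean held only 2 arrays of 12 well above background, so it sets no minimum for a change. The readings differed at the unadjusted threshold (limma over all probes, P = 0.0185, adjusted P = 0.487). With the authors' normalized values in place of the scanner signals the difference was -0.0080.

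The delta subunit *Chrnd* passed the filter, with 5 Norm and 8 Hypox arrays well above background. Its ratio ranged from -0.68 to 0.24 in Norm (median -0.029) and from -0.22 to 0.40 in Hypox (median 0.078). The groups overlapped, with 2 Hypox arrays above the highest Norm array and 3 Norm arrays below the lowest Hypox array. The difference was 0.13 (95% confidence interval -0.071 to 0.32, P = 0.200), and the Hypox mean was the higher one on 3 of 6 slides.

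The probe of the fetal subunit is shown because the question of a shift from epsilon to gamma rests on whether it gave a signal. It is 60 bases long, begins at base 889 of its transcript and spans 282 bases of genome, across an intron. The probe of *Chrne* lay at chr11:70429215-70429274 (mm9), from base 939 of its transcript.
*Chrng*, chr1:89106072-89106353 (mm9): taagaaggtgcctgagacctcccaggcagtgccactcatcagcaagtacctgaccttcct

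The fetal subunit *Chrng* was not well above background on any of the 24 arrays, so that no fold is given for it. Its readings ranged from -0.25 to 0.13 in Norm (median -0.066) and from -0.28 to 0.30 in Hypox (median -0.083). The adult subunit *Chrne* was well above background on 1 Norm and 3 Hypox arrays. Its ratio ranged from -0.69 to 0.080 in Norm (median -0.16) and from -0.31 to 0.10 in Hypox (median -0.053), and 4 of 12 Norm arrays lay below the lowest Hypox array. The difference of 0.15 ± 0.072 (SE) stood at the threshold (limma over all probes, P = 0.0479, adjusted P = 0.613), and leaving out 1 array at a time ended the call in 15 cases of 24. It was -0.068 with the authors' normalized values.

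The change of *Chrng* was smaller than that of *Chrne* by 0.15 on the log2 scale within arrays (95% confidence interval -0.34 to 0.039), which did not pass (2-sided permutation test, 100000 resamples, P = 0.112, adjusted over 7 such differences P = 0.260). The *Chrng* readings were background readings, and *Chrne* was well above background on only 4 of 24 arrays. This therefore compares mostly background with background, and no size of a subunit change is drawn from it. Among the subunits that passed the filter, the change of *Chrna1* exceeded that of *Chrnd* by 0.17 (interval -0.073 to 0.42), which did not pass (permutation test, P = 0.158, adjusted P = 0.260). The changes of *Chrne* and *Chrnb1* were also set against that of *Chrna1* and did not pass (permutation tests, adjusted P = 0.305 and 0.355), but these probes were well above background on 4 and 2 of 24 arrays, so that no size is drawn from them.

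**Figure D2:**
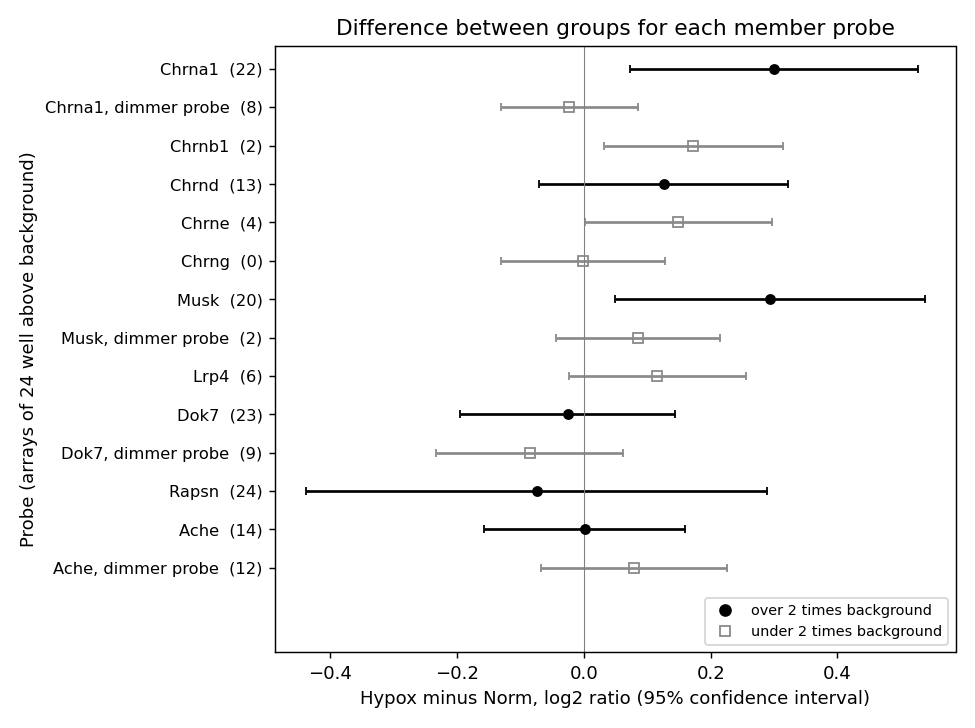
Difference in log2 ratio, Hypox minus Norm (x axis), with its 95% confidence interval for each of the 14 probes (y axis; in brackets the number of the 24 arrays well above background); black circles mark probes over 2 times background, grey squares those under it. The intervals of the brighter *Chrna1* and *Musk* probes and of the dim *Chrnb1* and *Chrne* probes lie above 0, and *Chrng* was well above background on 0 arrays.

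The kinase *Musk* is the signalling receptor of the agrin pathway. Its brighter probe, at chr4:58387070-58387129 from base 3316 of the transcript, was well above background on 10 arrays of each group. The log2 ratio ranged from -0.29 to 0.39 in Norm (median 0.0024) and from -0.14 to 1.33 in Hypox (median 0.26). The groups overlapped, with 10 of 12 Hypox arrays above the Norm median and 2 above the highest Norm array. The means were 0.025 ± 0.23 (SD, n = 12) and 0.32 ± 0.37 (n = 12), a difference of 0.29 ± 0.12 (SE; limma, P = 0.0203, adjusted P = 0.294). The highest value came from Hypox replicate 2, whose array had the lowest array weight of the 24, and without it the difference was 0.20 (P = 0.0311). The Hypox mean was the higher one on 6 of 6 slides, by between 0.081 on slide 2 and 0.89 on slide 3, which carried that array.

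The dimmer *Musk* probe spanned 3735 bases of genome across an intron, an interval within which the brighter probe lay, and is assigned by the files to another transcript of the gene. It was well above background on 1 array of each group. Its difference was 0.085 (95% confidence interval -0.045 to 0.22, limma over all probes, P = 0.188), the same direction as that of the brighter probe but not past the threshold.

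Without the 4 Hypox arrays with *Sftpc* signal, the difference of *Chrna1* was 0.30 (P = 0.0219) and that of *Musk* was 0.28 (P = 0.0610). The *Musk* P-value thus passed to the other side of the threshold, with 8 Hypox arrays in place of 12 and a value that hardly moved. Whether this came from the number of arrays or from those left out was not tested. Leaving these arrays out also turned the difference of *Rapsn* to 0.096 and ended the call of *Chrne* (0.17, P = 0.0589).

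**Figure D3:**
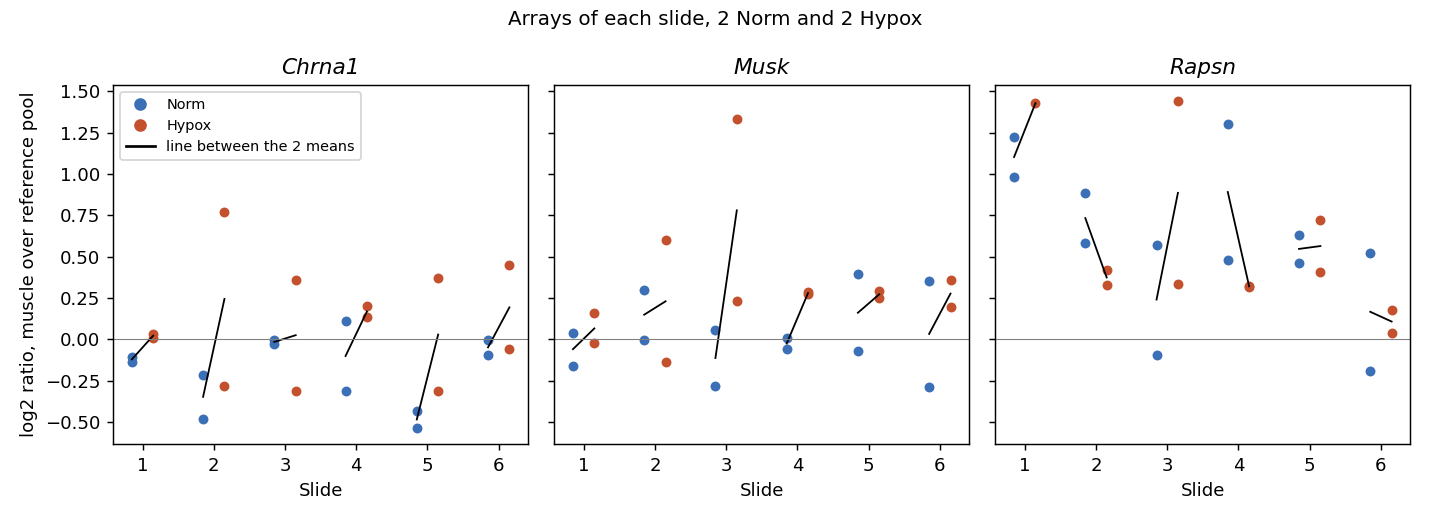
Log2 ratio of muscle over reference pool (y axis) on each of the 6 slides (x axis) for *Chrna1*, *Musk* and *Rapsn*; points are arrays, 2 Norm (blue) and 2 Hypox (red-orange) per slide, and lines join the 2 means. The lines rise on 6 of 6 slides for *Chrna1* and *Musk* and on 3 of 6 for *Rapsn*, which has only 1 Hypox array on slide 1.

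The agrin receptor *Lrp4* had 1 dim probe, well above background on 2 Norm and 4 Hypox arrays. Its ratio ranged from -0.52 to 0.11 in Norm (median -0.074) and from -0.31 to 0.26 in Hypox (median 0.029), a difference of 0.12 (95% confidence interval -0.023 to 0.26, limma over all probes, P = 0.0984). The adaptor *Dok7* was well above background on 11 Norm and 12 Hypox arrays. Its ratio ranged from -0.67 to 0.045 in Norm (median -0.34) and from -0.65 to -0.11 in Hypox (median -0.30). The groups overlapped, with 0 Hypox arrays above the highest Norm array, and the difference was -0.026 (interval -0.20 to 0.14, P = 0.760). The dimmer *Dok7* probe, from another transcript, differed by -0.085 (P = 0.242).

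*Rapsn*, the anchor of the receptor, was far above background on all 24 arrays, but its spread was wide: from -0.19 to 1.30 in Norm (median 0.58) and from 0.038 to 1.44 in Hypox (median 0.33). The Hypox values are those of 11 arrays, because the spot was flagged on replicate 12 and was left out of the fit. The difference was -0.074 (95% confidence interval -0.44 to 0.29, P = 0.679), and the Hypox mean was the higher one on 3 of 6 slides. The direction of *Rapsn* depended on the scaling: it was -0.30 (P = 0.0171) with the scanner software's processed signals, 0.61 (P = 0.216) with each array centred on its median and 0.38 (P = 0.183) with the authors' normalized values.

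Acetylcholinesterase, *Ache*, was well above background on 6 Norm and 8 Hypox arrays. Its ratio ranged from -0.32 to 0.18 in Norm (median -0.12) and from -0.53 to 0.32 in Hypox (median -0.14), so that the groups overlapped (difference 0.0015, 95% confidence interval -0.16 to 0.16, P = 0.984). Its dimmer probe differed by 0.079 (P = 0.281).

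Within the agrin pathway, the change of *Musk* exceeded that of *Rapsn* by 0.40 (95% confidence interval 0.016 to 0.78, 11 Hypox arrays), that of *Dok7* by 0.32 (-0.012 to 0.65) and that of *Lrp4* by 0.18 (-0.086 to 0.44). The unadjusted P-values of these 2-sided permutation tests were 0.0430, 0.0501 and 0.185, and none of the 3 passed after adjustment over the 7 differences (adjusted P = 0.175, 0.175 and 0.260). *Musk* was the higher one on 5 of 6 slides against *Rapsn* and *Dok7* and on 4 of 6 against *Lrp4*. The difference between *Musk* and *Rapsn* depended on the scaling: it was 0.75 and passed with the scanner software's processed signals (permutation test, adjusted P = 0.0345), and it was -0.087 with median centring and -0.057 with the authors' normalized values.

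With the filter removed, 4 of the 14 member probes were higher at the unadjusted threshold (those of *Chrna1*, *Musk*, *Chrnb1* and *Chrne*) against 4.13% of all 55681 probes, and 0 were lower against 3.93%. None of the 14 passed after adjustment over all probes, against 0.0808%, and the smallest adjusted P-value was 0.411 (limma). The difference was positive for 9 of the 14 probes and negative for 5, and the median over all probes was 0.0023.

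Over the 24 arrays *Chrna1* and *Musk* showed no positive relation to each other (r = -0.18, P = 0.383; rho = -0.10, P = 0.637), and with the group and slide means removed they were inversely related (r = -0.57, P = 0.00401, adjusted over 3 relations P = 0.0120; permutation tests). The rank correlation was weaker (rho = -0.36, P = 0.0800). The permutations made no allowance for the means taken out, so all P-values given with means removed are smaller than they should be. Hypox replicate 5 had the highest *Chrna1* value (0.77) beside a *Musk* value of -0.14, and replicate 2 had the highest *Musk* value (1.33) beside a *Chrna1* value of -0.31. Without the 2 arrays farthest from the median of *Chrna1* (Hypox 5 and Hypox 11) r was -0.49 (P = 0.0181, adjusted P = 0.0544) and rho -0.23 (P = 0.308). Without the 2 arrays of lowest weight (Hypox 2 and Hypox 12) r was -0.43 (P = 0.0455) and rho -0.16 (P = 0.469). So r stayed negative and became weaker, and the rank correlation did not pass in any of these forms. Leaving out Hypox 2 and Hypox 5 together was not tested.

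The myogenic factor *Myog*, known to activate receptor genes, was itself higher in Hypox by 0.23 ± 0.060 (SE; limma, P = 0.000658, adjusted P = 0.0899). Its probe was well above background on 11 of 24 arrays, 4 Norm and 7 Hypox. It passed the filter narrowly, with a mean signal of 2.10 times background against the limit of 2. Over the 24 arrays *Chrna1* correlated with *Myog* (r = 0.54, P = 0.00622, adjusted P = 0.0187; rho = 0.55, P = 0.00559). Both genes were higher in Hypox, so the pooled values hold that shared group difference as well. With group and slide means removed r was 0.40 (permutation test, P = 0.0518, adjusted P = 0.0777). The rho was then 0.38 (P = 0.0696, adjusted P = 0.120), and neither passed. Without the 2 arrays farthest from the median of *Myog* the pooled r was 0.40 (Hypox 7 and Hypox 11 left out, P = 0.0647) and the r with means removed was 0.15 (Hypox 1 and Hypox 11 left out, P = 0.496), while the pooled rho was 0.44 (P = 0.0418). Without the 2 arrays of lowest weight (Hypox 2 and Hypox 12) the pooled r was 0.61 (P = 0.00289), and with means removed r was 0.45 (P = 0.0379) and rho 0.48 (P = 0.0239). Here too the P-values with means removed are smaller than they should be. The relation thus depended on which arrays were left out. *Musk* and *Myog* gave r = 0.32 (P = 0.127) as measured and -0.15 (P = 0.465) with the means removed.

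**Figure D4:**
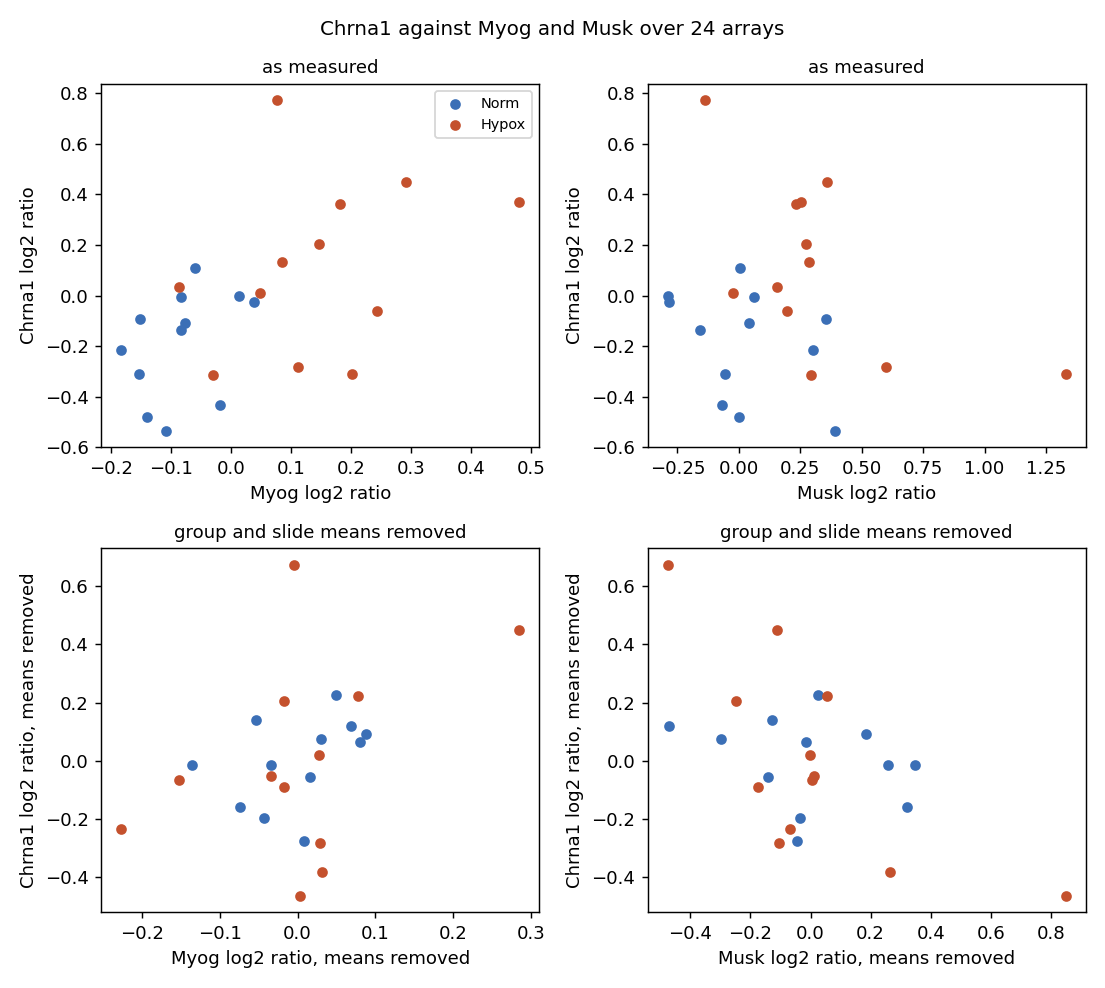
Log2 ratio of *Chrna1* (y axes) against that of *Myog* (left) and *Musk* (right) over 12 Norm (blue) and 12 Hypox (red-orange) arrays, as measured (top) and with group and slide means removed (bottom). Hypox arrays stand at 0.77 for *Chrna1* and at 1.33 for *Musk*, and these are different arrays.

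By likeness of pattern alone, the genes whose ratios followed *Chrna1* most closely over the 24 arrays, after group and slide means were removed, included *Klhl30* (r = 0.89), *Shmt2* (0.89), *Cyb5r1* (0.88) and *Def8* (0.87). For *Musk* they were *Retreg3* (r = 0.96), *2900076A07Rik* (0.93), *Gtf2f1* (0.91), *Ccdc181* (0.91) and *Fkbpl* (0.91). These are the top of 9054 genes measured on all arrays, so high values are found by the search itself. For *Musk*, Hypox replicate 2, the array of lowest weight, stood far out at 0.85 with the means removed. Likeness without that array was not examined. Of the other kept members measured on all 24 arrays, *Ache* (r = 0.38) and *Chrnd* (0.29) stood closest to *Chrna1*, and none had a positive r with *Musk*.

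Other genes of the junction were taken from a list. Of 43 junction partners, a list not confined to genes of the muscle fiber, 28 passed the filter. Of these, 0 were higher against 7.17% of all genes and 1 was lower against 5.07%. The median difference was 0.019, beside 0.029 over all genes. The one past the threshold was *Crk*, an adaptor recruited by DOK7 (-0.24 ± 0.075, P = 0.00319). *Agrn*, encoding agrin, differed by 0.17 (P = 0.260), *Colq*, the collagen tail of acetylcholinesterase, by 0.091 (P = 0.287), and *Scn4a*, the sodium channel of muscle, by 0.012 (P = 0.887). Of 34 regulators of receptor genes 26 were tested, with 1 higher (*Myog*), 2 lower and a median of 0.056, to be read against the same shares. The 2 lower ones were *Camk2b*, a calcium-dependent kinase subunit (-0.23 ± 0.083, P = 0.00875), and *Tcf4*, an E-protein partner of myogenic factors (-0.21 ± 0.094, P = 0.0313). *Myf6*, the main myogenic factor of adult fibers, differed by 0.27 (P = 0.0556) and *Gabpa*, the N-box factor, by 0.22 (P = 0.0951), whereas *Myod1* did not pass the filter and *Runx1* was well above background on 0 arrays.

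Genes commonly cited as raised in denervated muscle, with the members left out, formed another list: 7 of 18 tested were higher against 7.17% of all genes, 0 lower against 5.07%, and a median of 0.17 beside 0.029 over all genes. None of the 7 passed after adjustment, and the list shares *Myog* and *Cdh15*, among others, with other lists here. The list was chosen with earlier results of these data known, the study's report of higher *Myog* and *Cdh15* among them. Its count is therefore not independent of those results. The 5 with the smallest P-values were *Myog*, *Mybph*, a myosin binding protein (0.52 ± 0.16, P = 0.00242), *Gadd45a*, a stress-response gene (0.25 ± 0.11, P = 0.0272), *Myh3*, embryonic myosin (0.38 ± 0.17, P = 0.0335), and *Ankrd1*, a stretch-response gene (0.25 ± 0.12, P = 0.0355). The Hypox mean of *Mybph* and *Myog* was the higher one on 6 of 6 slides, that of *Myh3* and *Ankrd1* on 5 and that of *Gadd45a* on 4. *Trim63* (0.31, P = 0.115) and *Fbxo32* (0.13, P = 0.266), the ubiquitin ligases of atrophy, and *Myh8*, perinatal myosin (-0.42, P = 0.233), did not pass. The mean over the tested genes of this list lay between -0.24 and 0.18 on the Norm arrays and between -0.029 and 0.22 on the Hypox arrays.

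**Figure D5:**
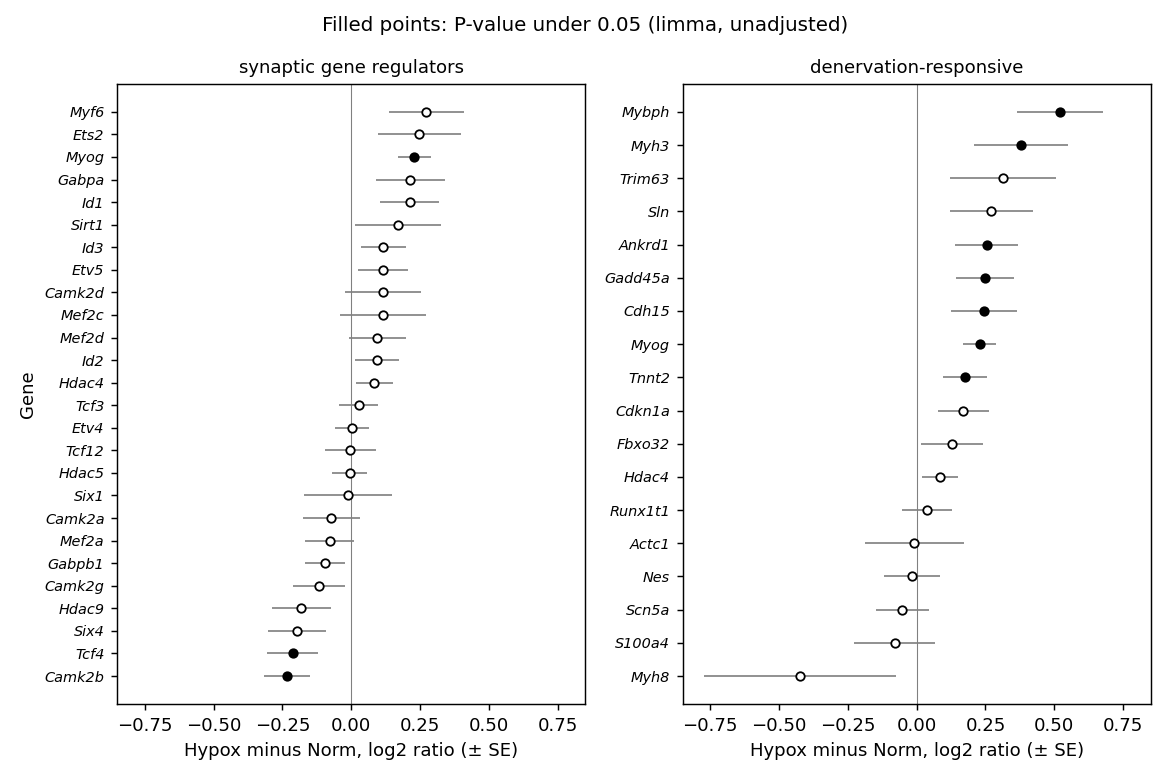
Difference in log2 ratio, Hypox minus Norm, ± SE (x axes) for the tested genes (y axes) of 2 lists, regulators of receptor genes and genes raised in denervated muscle; filled points passed the unadjusted threshold. Of the denervation list 7 of 18 points are filled and positive, and of the regulators 1 filled point is positive and 2 are negative.

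Other cells of the sample were followed through their markers, and their part in the member genes was not tested. The counts of every list in this paragraph and the next are to be read against 7.17% of all genes higher and 5.07% lower. Of 17 Schwann cell markers 10 were tested, and all 10 differences were negative with a median of -0.17. At the unadjusted threshold 0 were higher and 3 were lower, among them the myelin genes *Prx* (-0.28 ± 0.12, P = 0.0281) and *Pmp22* (-0.41 ± 0.19, P = 0.0371). The mean of the 10 tested markers lay between -0.31 and 0.51 on the Norm arrays and between -0.50 and 0.19 on the Hypox arrays. Of 18 motor axon genes 12 were well above background on no array, the neurofilament genes *Nefl*, *Nefm* and *Nefh* among them, and 0 of the 4 tested passed. Of 11 other nicotinic subunits 2 were tested and 0 passed.

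Of 13 satellite cell markers 5 were tested and 1 was higher, the cadherin *Cdh15* (0.25 ± 0.12, P = 0.0498), while *Pax7* and *Myf5*, which define these cells, were well above background on no array. All 11 slow fiber genes had positive differences (median 0.30), and *Tnni1* (0.61 ± 0.16, P = 0.000892), *Casq2* (0.27 ± 0.10, P = 0.0111), *Tnnc1* (0.44 ± 0.18, P = 0.0221) and *Myh7b* (0.27 ± 0.13, P = 0.0481) were higher. Their mean lay between -1.84 and 0.48 on the Norm arrays and between -0.21 and 0.17 on the Hypox arrays. Among the 20 skeletal muscle markers 14 differences were negative and 6 positive, with a median of -0.23 beside 0.029 over all genes. Of these markers *Mylpf* was higher and *Ttn* and *Ryr1* were lower, with *Ttn* past the adjusted threshold (-0.75 ± 0.17, adjusted P = 0.0434). Of the tested endothelial markers 3 of 9 were higher and 0 lower, of the tendon markers 2 of 7 were higher and 0 lower, of the adipose markers 1 of 7 was higher and 2 lower, and of the lung markers 1 of 3 was higher, *Sftpc*. None of the 4 red blood cell markers and 5 macrophage markers tested passed.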

How the data were processed

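The authors deposited, for each of the 24 arrays, the intensity of every spot as written by Agilent Feature Extraction 10.7.3.1 (per the labels), with mean signal, local background and flags per channel and no normalization between arrays, and a table of normalized log2 values made with GeneMaths XT for 21335 spots, whose scaling and use of Cy3 are not given in the sources used here. Cy5 was taken as the mouse and Cy3 as the pool from the descriptions, because the dye field of several Hypox samples disagrees with them. Probe coordinates are those of the files (mm9).

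The mean signal was background-corrected with normexp (offset 50), log2 ratios were normalized by loess within arrays, and 7260 flagged spot readings were left out; 0 were saturated. Gene names of the 55681 probes came from RefSeq's table, through the accession for 27235, the symbol for 3581 and an older name for 565. Probes with a mean Cy5 signal over 2 times local background and at most 4 arrays without a value were kept (14312 probes, 9139 genes), and the probe of highest mean intensity stood for its gene. Hypox was compared with Norm with limma 3.58.1 (R 4.3.3) without a block, and again over all probes without the filter. For *Chrnb1*, the Norm Cy5 values after loess and Aquantile were raised to at least the lowest signal well above background per array. Differences of changes and relations across arrays were tested with 100000 permutations (Python 3.11.15, numpy 2.4.6, scipy 1.17.1). For relations with group and slide means removed, the remaining values were permuted freely, with no allowance for the means taken out. Precision is limited by the 12 arrays per group and by signal over background. The fits were tested on simulated data.

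The members and the gene lists were chosen with earlier results of these data known. Named were all members, up to 5 genes per list with the smallest P-values past the threshold, and the 5 genes most like *Chrna1* and *Musk*; some genes this rule picks and a probe sequence are not reported here, and other genes named without passing were chosen after their values were seen. Lists covered junction partners, regulators, denervation, other nicotinic subunits, motor axon, slow fibers and markers of 8 other tissues or cell types and of skeletal muscle. Alternatives were processed signals, median centring, Cy5 alone, deposited values, the methods' t-test, other filters and probes, slide and replicate blocks, array weights and leaving out each array, with sets of arrays left out added after the data were seen.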

Additional observations from a re-analysis of the deposited data

How the results depend on the processing

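*Chrna1* and *Musk* stayed the 2 members past the unadjusted threshold in each of the 24 fits without 1 array, at between 0.24 and 0.34 for *Chrna1* and between 0.20 and 0.33 for *Musk*, and with the slide block. Median centring ended both calls (0 of 6 members; *Chrna1* 0.52, P = 0.136; *Musk* 0.44, P = 0.108), with all genes shifted by a median of 0.25 and 32 higher and 0 lower in place of 655 and 463. It left 1 of 14 probes past the threshold, and the deposited values, which hold none for *Chrng* and the dimmer *Musk* probe, left 2 with limma and 2 with the methods' t-test, against 4. Without the 4 arrays with *Sftpc* signal 1 of 6 members passed. The count of all genes past the threshold was 1118, and 722 with Cy5 alone, 488 with the deposited values, 516 with the methods' t-test on them, 1939 without the filter, 1718 with array weights, and between 974 and 1289 without 1 array. Probes past the threshold numbered between 3 and 5 without 1 array.

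The replicate block gave 1194 genes, 2 of 6 members and 4 of 14 probes, and changed no call of a kept member. The numbers did not pair the arrays: 3 of 12 same-numbered pairs correlated above 0.1 (range -0.21 to 0.51), and 2 of 12 Norm arrays were closest to their own number.

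Several directions turned. *Dok7* became 0.0108 with processed signals, 0.24 with median centring, 0.0822 with the deposited values by either test, 0.0723 with array weights, 0.00034 without slide 1 and 0.0232 without the 2 arrays of lowest weight (-0.0564 to 0.00861 without 1 array). *Ache* became -0.17 with processed signals, -0.00596 with Cy5 alone and -0.12 with the deposited values by either test (-0.0389 to 0.0384 without 1 array). *Rapsn* became 0.61 with median centring, 0.38 with the deposited values by either test and 0.0957 without the *Sftpc* arrays. *Chrnb1*, *Chrne* and *Lrp4* became -0.00798, -0.0677 and -0.0140 with the deposited values by either test, *Chrne* was -0.0653 within slide 2, and the dimmer *Chrna1* probe gave -0.0230. The cause was not tested.

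Among the differences of changes, *Chrna1* minus *Chrnb1* became -0.42 with processed signals. *Musk* minus *Rapsn* became 0.75 with processed signals, which passed after adjustment (0.0345), -0.0869 with median centring and -0.0571 with the deposited values, and passed without Hypox replicate 4 (0.51). Without 1 array the differences ranged from -0.19 to -0.10 (*Chrng* minus *Chrne*), 0.0687 to 0.20 (*Chrna1* minus *Chrne*), 0.0566 to 0.17 (*Chrna1* minus *Chrnb1*), 0.12 to 0.23 (*Chrna1* minus *Chrnd*), 0.0904 to 0.22 (*Musk* minus *Lrp4*), 0.21 to 0.36 (*Musk* minus *Dok7*) and 0.33 to 0.51 (*Musk* minus *Rapsn*). The values with *Chrng*, *Chrne* or *Chrnb1* rest on probes seldom or never well above background, and no size is drawn from them. With group and slide means removed r was 0.40 for *Myog* and *Chrna1*, -0.15 for *Myog* and *Musk* and -0.57 for *Chrna1* and *Musk*. For *Myog* and *Chrna1* without the 2 farthest arrays, r was 0.40 as measured and 0.15 with the means removed.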
